A study of Homo sapiens with 45 samples.

Results

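The 9 genes described here, HLA-B, HLA-C, HLA-E, B2M, TAP1, TAP2, TAPBP, NLRC5 and PSMB9, encode parts of MHC class I antigen presentation and were taken as a named list out of 41582 genes with transcripts in the tables. They were followed through 45 poly(A) RNA libraries of human cell lines in a study of the potassium channel gene KCNN1 in Ewing sarcoma. Ewing sarcoma was represented by 7 lines (TC71, SKES1, RDES, MHHES1, EW24, EW3, A673) and osteosarcoma by 6 (U2OS, SAOS2, MG63, KHOS, HOS-MNNG, G292), each with 3 libraries. A further 6 libraries were A673 cells that carry sh908, a hairpin against KCNN1, of which 3 were without doxycycline, the drug that switches the hairpin on, and 3 were with it. All sh908 cells therefore carried the hairpin, and the parental A673 libraries did not. Each library is a sample of 1 established line, HOS-MNNG and KHOS are both derivatives of the HOS line, and the labels name no separate cultures, so the p-values between library groups measure the spread between these libraries only.

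MHC class I molecules are a heavy chain (HLA-B, HLA-C, HLA-E and others) bound to the light chain beta-2 microglobulin, which B2M encodes, and they show short peptides from inside the cell to CD8 T cells and natural killer cells. Peptides are cut by the proteasome, of which PSMB9 is an interferon-inducible subunit, are pumped into the endoplasmic reticulum by the TAP1 and TAP2 transporter and are loaded with the help of tapasin, the product of TAPBP. NLRC5 is the transactivator that acts through the conserved X and Y boxes of class I promoters, and interferon acts on the same genes through interferon response elements.

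On GRCh38.p14, 7 of the 9 genes lie on chromosome 6, among them HLA-E at chr6:30489509-30494194, HLA-C at chr6:31268749-31272092 and HLA-B at chr6:31353875-31357179, both of the latter on the minus strand. TAP2 (chr6:32821831-32838739, minus strand), TAP1 (chr6:32845209-32853704, minus strand) and PSMB9 (chr6:32854192-32859851, plus strand) are close neighbours, and TAPBP (chr6:33299694-33314078) lies further along. TAP1 and PSMB9 point away from each other with 487 bases between their starts. B2M is on chromosome 15 (chr15:44711517-44718145) and NLRC5 on chromosome 16 (chr16:56989557-57083520).

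RefSeq promoter windows were matched for 7 of the 9 genes. The 250 bases before the start are printed for both classical heavy chains, the light chain and the TAP1 and PSMB9 pair, and they show only which elements lie in these windows. Sequences run 5′ to 3′ on the strand of the gene, and capitals mark matches on either strand to AANNGAAA (interferon response core), the interferon-stimulated response element (GAAA, any 2 bases and GAAA again, which overlaps the core), TTCNNNGAA (STAT palindrome), CCAAT (Y box) or TGACG (X2 box). The windows are chr6:31357180-31357429 (HLA-B, minus strand), chr6:31272093-31272342 (HLA-C, minus strand), chr15:44711267-44711516 (B2M, plus strand), chr6:32853705-32853954 (TAP1, minus strand) and chr6:32853942-32854191 (PSMB9, plus strand).
HLA-B: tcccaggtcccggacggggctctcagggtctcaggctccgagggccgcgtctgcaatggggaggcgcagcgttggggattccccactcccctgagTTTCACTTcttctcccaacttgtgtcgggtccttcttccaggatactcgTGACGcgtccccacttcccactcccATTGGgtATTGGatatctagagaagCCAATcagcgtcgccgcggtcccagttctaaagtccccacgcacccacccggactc
HLA-C: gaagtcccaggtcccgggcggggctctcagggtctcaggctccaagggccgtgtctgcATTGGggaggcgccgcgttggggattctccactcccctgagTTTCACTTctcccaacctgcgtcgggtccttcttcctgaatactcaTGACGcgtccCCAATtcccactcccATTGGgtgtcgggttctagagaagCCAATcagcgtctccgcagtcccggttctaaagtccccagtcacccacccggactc
B2M: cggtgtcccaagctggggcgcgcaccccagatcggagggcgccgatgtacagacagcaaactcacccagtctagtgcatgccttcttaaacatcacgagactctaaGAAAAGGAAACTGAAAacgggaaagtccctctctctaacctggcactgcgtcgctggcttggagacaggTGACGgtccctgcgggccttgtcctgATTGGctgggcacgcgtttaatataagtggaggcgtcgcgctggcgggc
TAP1: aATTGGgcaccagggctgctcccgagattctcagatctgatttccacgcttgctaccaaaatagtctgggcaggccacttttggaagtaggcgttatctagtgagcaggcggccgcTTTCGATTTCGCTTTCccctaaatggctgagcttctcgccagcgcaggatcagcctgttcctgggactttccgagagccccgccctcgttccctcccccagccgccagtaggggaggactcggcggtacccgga
PSMB9: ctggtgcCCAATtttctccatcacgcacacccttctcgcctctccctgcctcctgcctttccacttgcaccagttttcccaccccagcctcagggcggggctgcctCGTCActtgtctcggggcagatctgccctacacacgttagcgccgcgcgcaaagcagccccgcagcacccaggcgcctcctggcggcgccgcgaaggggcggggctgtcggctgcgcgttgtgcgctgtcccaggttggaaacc

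The HLA-B and HLA-C windows had 226 identical bases in 254 aligned columns (89%). Both held an interferon response core, TGACG and a CCAAT 56 to 52 bases before the start. The B2M window held 2 overlapping interferon-stimulated response elements, a TGACG and a CCAAT on the other strand. For TAP1 the table held 2 windows. The printed one, nearer to PSMB9, also held 2 overlapping interferon-stimulated response elements but no TGACG, and the other (chr6:32852762-32853011) held a STAT palindrome and none of the remaining motifs. The windows of TAP2 and TAPBP, which are not printed, also held interferon-stimulated response element matches but no CCAAT, and that of TAP2 held TGACG. By contrast, the PSMB9 window held TGACG and CCAAT matches and neither interferon motif. The interferon elements of TAP1 lie between the 2 starts, beyond the 250 bases of the PSMB9 window. That window therefore does not show that PSMB9 lacks them. Among all 35116 promoter windows of the same length, AANNGAAA was found in 20.3%, the interferon-stimulated response element in 3.02%, TTCNNNGAA in 6.57%, CCAAT in 32% and TGACG in 21.2%, so a single match of the shorter motifs is common. These matches are letters in a sequence and were not measured as bound sites.

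Total estimated counts were 15974173 to 51413254 per library. Levels are given as TPM, the share of transcripts scaled for transcript length and depth. In the sh908 groups, replicate 3 stood apart: 72.8% of the genes had their highest uninduced TPM and 70.7% their highest induced TPM there. Libraries of other groups also differed in 1 direction over most of the 9 genes. Replicate 3 of MHHES1 had the highest TPM for all 9, against 35% of all genes, and replicate 3 of RDES (44.1% of all genes), replicate 1 of MG63 (47.6%) and replicate 1 of SAOS2 (45.7%) had the highest for 8. Class I genes are highly variable between people and resemble each other, and the tables list 1 transcript of HLA-B and 2 of HLA-C. In the GENCODE v29 transcripts, 15.6% of the 31-base words of HLA-B and 20.1% of those of HLA-C also occurred in another gene, against 0% for B2M and NLRC5. The share was 11.5% for HLA-E, 1.71% for TAP1, 36% for TAP2, 12.5% for TAPBP and 14.3% for PSMB9. Heavy chain levels were estimated against few reference transcripts, and the match to the HLA type of each line was not tested. A low value such as HLA-B in A673, the ratio of B2M to the heavy chains and the order of the lines for HLA-B and HLA-C are subject to this limit. The HLA-C reads of EW24 and MG63 were assigned to 1 of the 2 listed transcripts (99.8% and 99.9% of HLA-C TPM), and those of A673 to the other (96.6%).

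Of the 9 class I genes, 4 were called lower in the Ewing sarcoma lines than in the osteosarcoma lines and none was called higher. These were NLRC5, HLA-C, TAP2 and PSMB9. A gene was called where the false discovery rate (FDR) of edgeR's quasi-likelihood test over all genes, fitted on 7 against 6 line sums, was under 0.05, and 8.4% of the 22000 genes tested were called lower. The median log2 fold change was -2.20 over the 9 genes and -0.06 over all genes. HLA-E and B2M differed least. In such bulk libraries fewer cells that express a gene and less RNA per cell cannot be told apart. Over all genes 1312 were called higher and 1847 lower, and with limma on log2(TPM + 1) the split was 1509 and 1115.

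**Figure D1:**
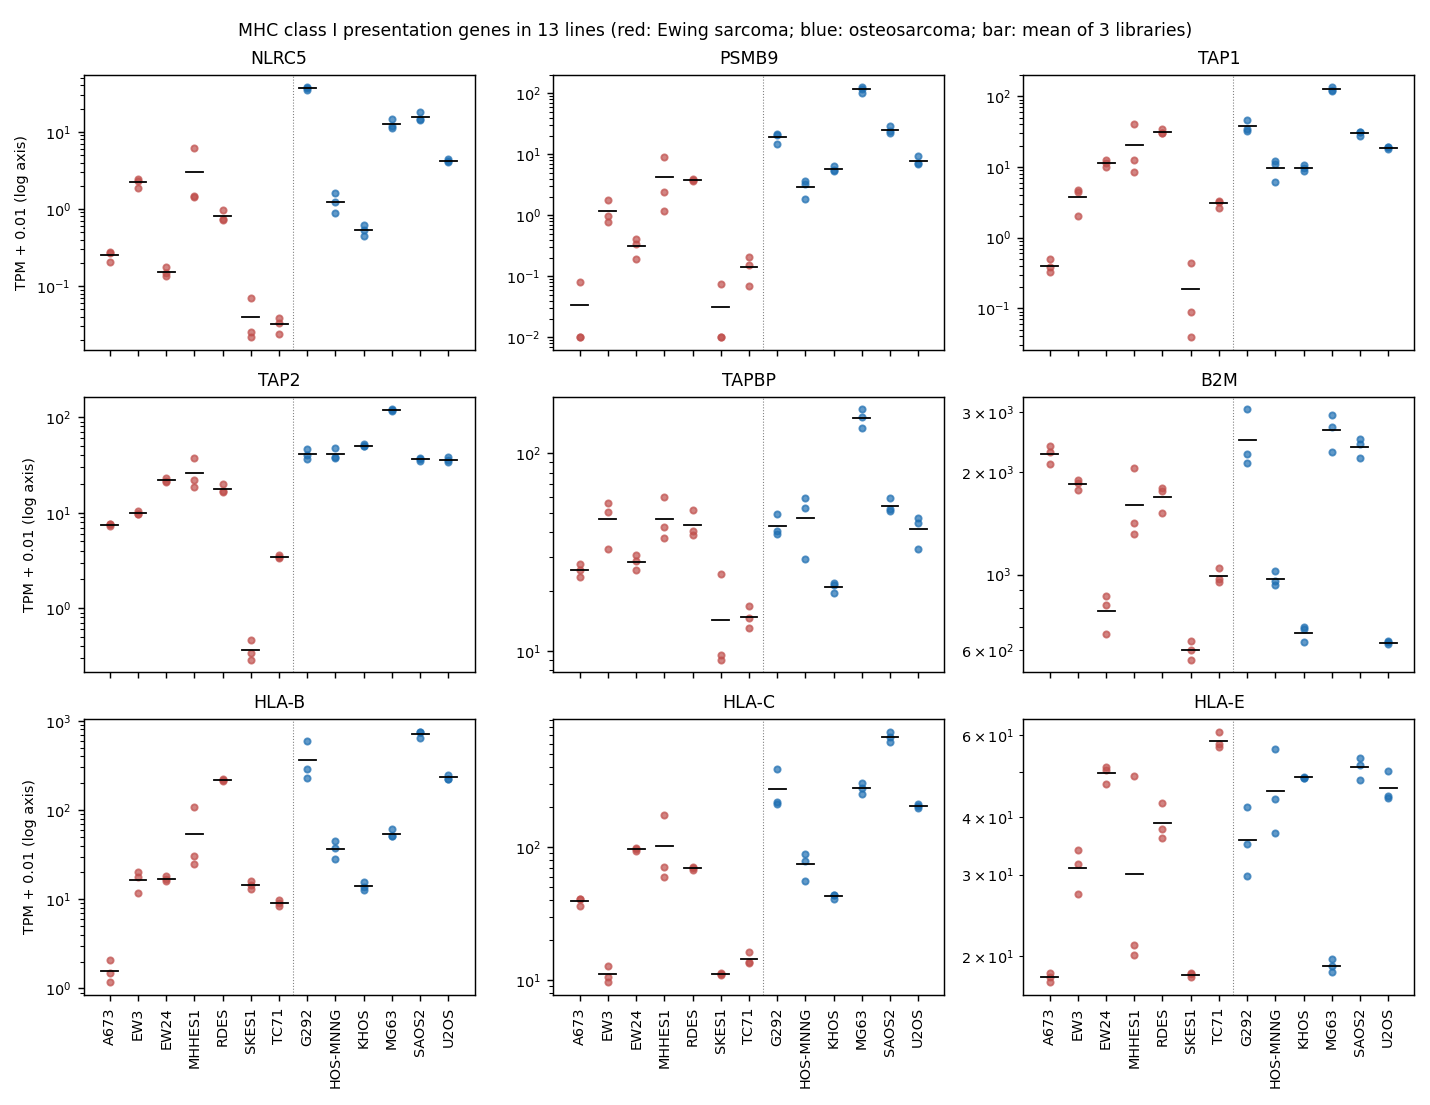
TPM plus 0.01 on a log axis for each of the 9 genes in the 3 libraries of 13 lines, with red points for Ewing sarcoma, blue points for osteosarcoma and a bar at the mean of the line. TAP2 separates the 2 tumour types, with Ewing sarcoma line means up to 26.1 TPM and osteosarcoma line means from 36 TPM, whereas B2M and HLA-E cover similar ranges in both.

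NLRC5, the transactivator, ranged from 0.0219 TPM in TC71 over a median of 0.24 to 3.04 in MHHES1 among the Ewing sarcoma lines. Among the osteosarcoma lines it ranged from 0.527 in KHOS over a median of 8.4 to 36.7 in G292. In 4 of 7 Ewing sarcoma lines NLRC5 was below every osteosarcoma line. The mean of RDES (0.802 TPM) lay between those of KHOS and HOS-MNNG (1.22 TPM). The means of EW3 (2.21 TPM) and MHHES1 lay between those of HOS-MNNG and U2OS (4.21 TPM). The log2 fold change was -4.06 with an SE of 1.24 (edgeR, FDR 0.0432), and it was -3.19 (edgeR FDR 0.0963) without G292 and -4.68 (edgeR FDR 0.041) without MHHES1. The MHHES1 mean rested on replicate 3, where NLRC5 was 6.26 TPM, against 1.45 and 1.41 in the other libraries.

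Among the heavy chains, HLA-C was called. HLA-C presents peptides to T cells and is a ligand of inhibitory receptors on natural killer cells. Its line means were 11.1 (EW3), 39.3 (median) and 102 TPM (MHHES1) in Ewing sarcoma and 42.9 (KHOS), 238 (median) and 676 TPM (SAOS2) in osteosarcoma. The log2 fold change was -2.41 (SE 0.67, edgeR FDR 0.0306), and 4 Ewing sarcoma lines lay below all osteosarcoma lines. The call of HLA-C was lost without A673, RDES, SKES1, TC71 or SAOS2 (edgeR FDR 0.0519 to 0.0696, with -1.92 without SAOS2), and by the exact permutation test over lines (FDR 0.0901). The MHHES1 mean of HLA-C came from 59.3, 71 and 174 TPM, with replicate 3 the highest.

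HLA-B, the other classical heavy chain on the list, spread over a 455-fold range. It ran from 1.58 (A673) over 16.5 to 217 TPM (RDES) in Ewing sarcoma and from 14.1 (KHOS) over 143 to 717 TPM (SAOS2) in osteosarcoma. RDES lay among the high osteosarcoma lines, close to U2OS at 232 TPM, and MHHES1 had 25, 30.4 and 107 TPM in its 3 libraries. The log2 difference was -2.44 with an SE of 1.01, which did not pass the test (edgeR FDR 0.122). Without RDES it was -3.61 and passed (edgeR FDR 0.0297), whereas without SAOS2 it was -1.74 (edgeR FDR 0.266), and HLA-B and HLA-C counted as 1 gene gave -2.42 (SE 0.72, edgeR FDR 0.0401).

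HLA-E, which presents signal peptides of other class I chains to natural killer cells, ran from 18 (A673) over 30.9 to 58.4 TPM (TC71) in Ewing sarcoma. In osteosarcoma it ran from 19.1 (MG63) over 45.8 to 51.1 TPM (SAOS2). Its log2 difference was -0.33 (SE 0.34, edgeR FDR 0.567). TC71, where NLRC5 was lowest, had the highest HLA-E of the 13 lines, and MG63, which led for several other members, had the lowest HLA-E in osteosarcoma.

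B2M was the most abundant of the 9 genes in every line. It ran from 600 (SKES1) over 1601 to 2264 TPM (A673) in Ewing sarcoma and from 632 (U2OS) over 1675 to 2654 TPM (MG63) in osteosarcoma. The log2 difference was -0.31 (SE 0.40, edgeR FDR 0.653), and the types overlapped almost fully. B2M spanned a 4.42-fold range over the 13 lines and HLA-E a 3.24-fold range, against 455-fold for HLA-B and 61-fold for HLA-C. The ratio of B2M to the summed TPM of HLA-B, HLA-C and HLA-E differed widely. It was 38.5 ± 0.979 in A673 and 32 ± 4.32 in EW3, but 1.65 ± 0.0256 in SAOS2 and 1.31 ± 0.0335 in U2OS (SD, n = 3 libraries). Other heavy chains were not in this sum.

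The transporter subunits had unlike tests. TAP2 line means were 0.357 (SKES1), 9.96 (median) and 26.1 TPM (MHHES1) in Ewing sarcoma and 36 (U2OS), 41.1 (median) and 119 TPM (MG63) in osteosarcoma. All 7 Ewing sarcoma lines lay below all 6 osteosarcoma lines, which held for 1 of the 9 genes and for 2.39% of all genes tested. This is a statement on line means: MHHES1 had 18.6, 22.2 and 37.4 TPM, and its replicate 3 passed the U2OS mean. The log2 fold change of TAP2 was -2.20 (SE 0.69, edgeR FDR 0.0483), and -1.72 (edgeR FDR 0.109) without MG63. TAP1 line means were 0.177 (SKES1), 3.72 (median) and 31.5 TPM (RDES) in Ewing sarcoma and 9.64 (KHOS), 24.5 (median) and 126 TPM (MG63) in osteosarcoma. Its log2 difference of -2.14 (SE 0.98) did not pass (edgeR FDR 0.161) and was -1.22 (edgeR FDR 0.418) without MG63. RDES, MHHES1 and EW24 (11.2 TPM) lay within the osteosarcoma range, MHHES1 with 8.51, 12.4 and 41.1 TPM. TAPBP ran from 14.3 (SKES1) over 28.2 to 46.6 TPM (MHHES1) and from 21 (KHOS) over 45 to 152 TPM (MG63), with a log2 difference of -1.14 (SE 0.40, edgeR FDR 0.0724), or -0.57 (edgeR FDR 0.183) without MG63 and -1.31 (edgeR FDR 0.0479) without KHOS.

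PSMB9, the inducible proteasome subunit, was called lower in Ewing sarcoma. Its line means were 0.0212 (SKES1), 0.299 (median) and 4.22 TPM (MHHES1) in Ewing sarcoma and 2.92 (HOS-MNNG), 13.4 (median) and 116 TPM (MG63) in osteosarcoma. In 5 Ewing sarcoma lines PSMB9 was below every osteosarcoma line, and MHHES1 and RDES (3.81 TPM) lay just above HOS-MNNG. The MHHES1 libraries had 1.18, 2.43 and 9.06 TPM of PSMB9, so that its place above HOS-MNNG rests on replicate 3. The log2 fold change was -4.65 (SE 1.29, edgeR FDR 0.029), -3.29 (edgeR FDR 0.0717) without MG63 and -5.31 (edgeR FDR 0.0291) without MHHES1. Counts were few at the low end: SKES1 and A673 had 1 estimated count of PSMB9 each over their 3 libraries, so their levels are known only as near 0.

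**Figure D2:**
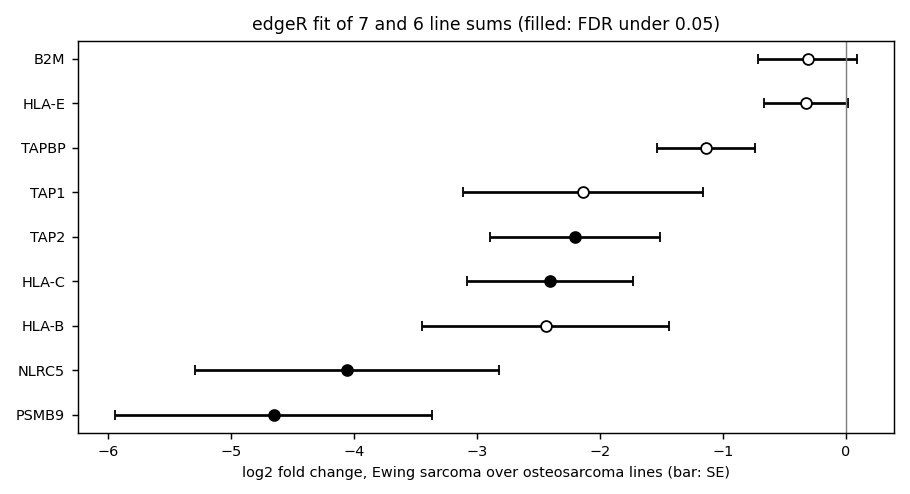
Log2 fold change of the 9 genes between 7 Ewing sarcoma and 6 osteosarcoma line sums, with the SE as bars and filled points for FDR under 0.05. All 9 estimates lie below 0, and the filled points are PSMB9, NLRC5, HLA-C and TAP2.

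The calls were close to the threshold. Leaving out 1 line at a time, between 0 and 4 of the 9 genes were called: none without TC71, 1 without A673, EW3, EW24, MG63 or SAOS2, 2 without RDES, SKES1 or G292, and 3 or 4 otherwise. Over all genes 5.97% to 8.15% were called lower in these fits, with 6.57% without TC71. Over the 16 fits that left out a line or a replicate number, the call was lost in 13 for TAP2, 11 for NLRC5, 5 for HLA-C and 4 for PSMB9. Without replicate 3 of every line, which removes the high MHHES1 library, 4 were called, and without replicate 1 or replicate 2 of every line 2 were, with NLRC5 (edgeR FDR 0.057 and 0.0524) and TAP2 (0.0548 and 0.0509) lost, where 8.05% to 8.33% of all genes were called lower. DESeq2 called 7 of the 9 genes lower, with HLA-B, TAP1 and TAPBP added, where it called 13.9% of all genes lower. The exact permutation test over lines called TAP2 and PSMB9, where it called 5.15% of all genes lower. With the HOS derivatives HOS-MNNG and KHOS summed into 1 line, the call of TAP2 was lost (edgeR FDR 0.0679). Those of HLA-C (edgeR FDR 0.0263), PSMB9 (0.0313) and NLRC5 (0.0378) were kept, where 7.48% of all genes were called lower.

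PSMB9 replaces the constitutive subunit PSMB6 in the immunoproteasome, and PSMB8 replaces PSMB5. PSMB9 made up 30.9% ± 2.64 of the summed PSMB9 and PSMB6 TPM in MG63, 7.87% ± 1.53 in SAOS2 and 5.13% ± 1.19 in G292. It made up 1.42% ± 0.0244 in RDES, the highest Ewing sarcoma line, and 0.0047% ± 0.00815 in A673 (SD, n = 3 libraries). RDES lay above KHOS (1.02% ± 0.128) and HOS-MNNG (0.573% ± 0.187). The MHHES1 share was 0.921% ± 0.993, an SD above the mean that came with its high replicate 3. The pair of PSMB10 and the constitutive PSMB7 had another order: the PSMB10 share was lowest among the osteosarcoma lines in MG63 (5.29% ± 0.178) and highest in U2OS (13.9% ± 0.63), and among the Ewing sarcoma lines it was highest in EW3 (6.42% ± 0.155), above MG63, with RDES at 4.16% ± 1.01.

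**Figure D3:**
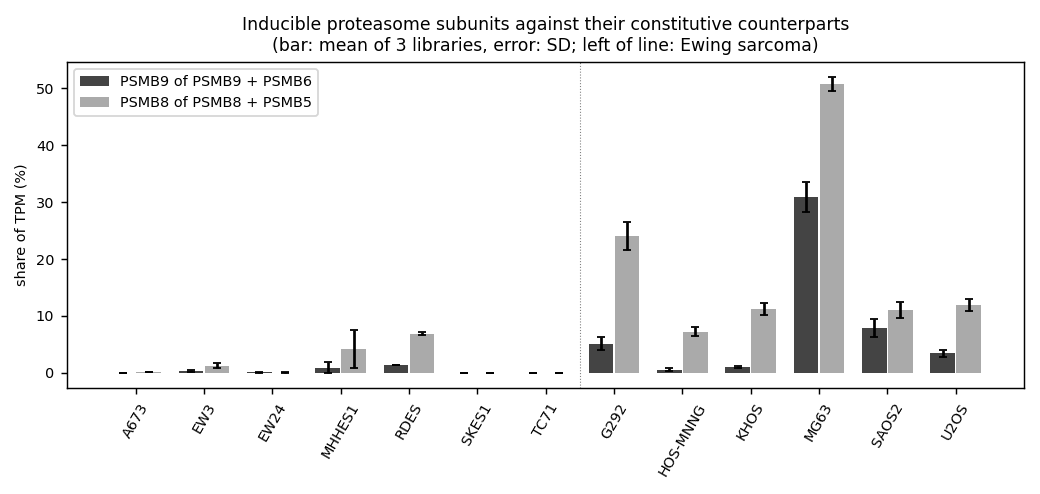
Share in percent of PSMB9 in PSMB9 plus PSMB6 TPM and of PSMB8 in PSMB8 plus PSMB5 TPM, as the mean of 3 libraries with the SD, for 13 lines with Ewing sarcoma to the left of the dotted line. MG63 has the highest shares, 30.9% and 50.8%, and RDES the highest of the Ewing sarcoma lines, 1.42% and 6.88%.

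Other genes of the pathway were counted by list. Of 4 other immunoproteasome and activator genes, 1 was called lower in Ewing sarcoma, PSMB10 (log2 fold change -0.91, edgeR FDR 0.046), and none higher. PSMB8 was at most 19.1 TPM in Ewing sarcoma (RDES) and at least 30.4 TPM in osteosarcoma (HOS-MNNG), with a log2 difference of -4.26 and an edgeR FDR of 0.053. Of 7 other class I heavy chain genes 1 was called lower, MICA (-1.25, edgeR FDR 0.045), which encodes a stress ligand of natural killer cells. Of 7 peptide loading and trimming genes and 3 constitutive proteasome genes none was called. PSMB10, MICA and PSMB8, and below NFYB, CIITA, CD99, ALPL, SPARC, BGLAP, PTPRC, ITGAM, LYZ, CD3E and PSME1, are named outside the rule, after their values were seen.

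Of 11 factors that bind class I promoters, IRF1, an interferon-induced activator, was called lower (-1.70, SE 0.32, edgeR FDR 0.0044), and NFYB, a Y box binding subunit, was called higher (0.74, edgeR FDR 0.034). IRF1 line means were 2.19 to 5.51 TPM in Ewing sarcoma and 6.46 to 15.8 TPM in osteosarcoma and did not overlap. Of 10 interferon receptor and signalling genes 1 was called, the kinase gene JAK1, which was higher in Ewing sarcoma (1.59, SE 0.35, edgeR FDR 0.01). Of 6 chromatin silencing genes 1 was called, EZH2, the methyltransferase of Polycomb repressive complex 2, which was higher (1.84, SE 0.34, edgeR FDR 0.0036).

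The markers of the labelled tumours were called in part. Of 5 Ewing sarcoma markers 4 were called higher, among them PRKCB, STEAP1 (log2 fold change 2.80) and NKX2-2 (5.21), and CD99 (0.86, edgeR FDR 0.31) did not pass. Of 6 osteosarcoma or osteoblast markers 5 were tested and 2 were called lower, RUNX2 (-5.11) and COL1A1 (-4.29), by the same edgeR test, while ALPL, SPARC and BGLAP did not pass (edgeR FDR 0.19 to 0.67). Of 8 leukocyte markers 4 were tested, of which CD14 (-3.28) was called lower, and PTPRC, ITGAM and LYZ had log2 differences of 0.94, 1.79 and 0.34 that did not pass. Of 4 endothelial markers PECAM1 (-2.63) was called lower. The summed leukocyte markers reached at most 3.25 TPM in an Ewing sarcoma line (EW3) and 10.5 TPM in an osteosarcoma line (MG63). The T cell gene CD3E was at 0 in every line but EW3, where it was 0.0196 TPM. Of 10 MHC class II genes 1 was called lower, CIITA (-1.73, edgeR FDR 0.048). In G292, where NLRC5 was highest, the class II genes summed to 653 ± 58.7 TPM (SD, n = 3 libraries), against 0.749 to 32.4 TPM in the other groups. The part of these markers in the class I results was not tested.

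The rank of a line over the 9 genes stayed narrow in some lines and varied widely in others. It ran from 1 to 5 in SAOS2 and from 10 to 13 in SKES1, but from 1 to 11 in MG63 and from 1 to 13 in TC71. Ranked from the highest to the lowest level and averaged over the genes, SAOS2 (2.44), MG63 (2.89) and G292 (3.44) stood first and TC71 (10.1), A673 (10.6) and SKES1 (12.3) last. SKES1 was below the median line for all 9 genes. Each of the 9 orders has 12 steps from a line to the next. For HLA-E and B2M the library ranges of neighbours overlapped at 9 of these, so most neighbours did not differ beyond their spread. For TAP2 they overlapped at 4, and for NLRC5 and PSMB9 at 5.

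Over the 13 line means of log2(TPM + 1), Pearson's r was positive for 32 of 36 pairs of the 9 genes, with a median of 0.65. These are descriptions of lines that share the tumour type difference. Within the 7 Ewing sarcoma lines 34 pairs were positive (median 0.53), and within the 6 osteosarcoma lines 27 were (median 0.61). The highest was TAP1 with PSMB9, the neighbouring genes, at 0.88 (Spearman's rho 0.86), or 0.84 in Ewing sarcoma alone and 0.81 without SKES1 and MG63. NLRC5 had an r of 0.85 with PSMB9, 0.77 with HLA-C, 0.76 with HLA-B and 0.62 with B2M, but -0.02 with HLA-E. Within the Ewing sarcoma lines these were 0.79, 0.24, 0.45, 0.58 and -0.06, and within the osteosarcoma lines 0.70, 0.85, 0.78, 0.86 and -0.41. HLA-E had the 4 negative coefficients, the lowest with B2M at -0.33.

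**Figure D4:**
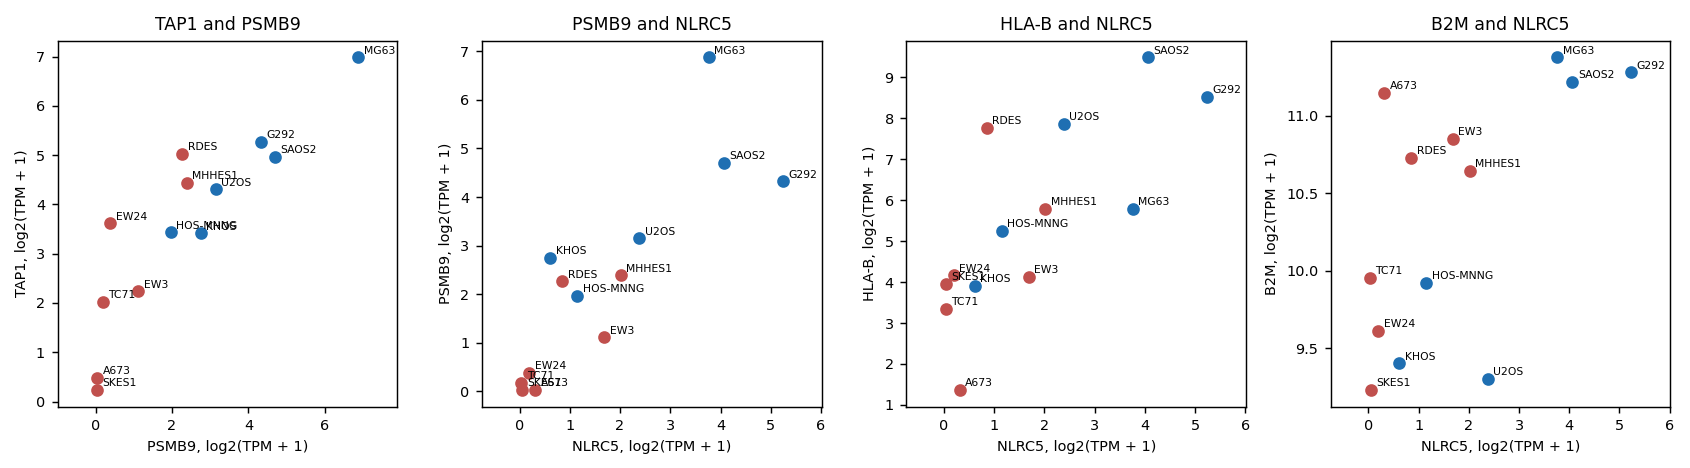
Line means on the log2(TPM + 1) scale for TAP1 against PSMB9 and for PSMB9, HLA-B and B2M against NLRC5, with red for Ewing sarcoma and blue for osteosarcoma. TAP1 and PSMB9 follow each other (r = 0.88), and B2M stays high in A673 although NLRC5 is low there.

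Among 15555 other genes with a mean of at least 1 TPM, those with line means most like the mean standardised level of the 9 genes were GNPTG, CPQ and PLEKHM2 (r = 0.92), MAN1A2 and RNF11 (r = 0.90). Those most like NLRC5 were TGOLN2 (0.95), PRUNE2 (0.94), FAM225A, PKD2 and CYLD (0.92 each), over 13 lines. All 5 of the latter were highest in G292, as NLRC5 was. Within the Ewing sarcoma lines PRUNE2 had an r of -0.03 with NLRC5 at a mean of 0.075 TPM, and 0.99 within the osteosarcoma lines, and the other 4 had 0.67 to 0.82 within the Ewing sarcoma lines.

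The sh908 libraries show whether the class I genes moved when the hairpin was induced in A673, the line with the lowest HLA-B. KCNN1, the target, was 37.8, 35.3 and 18 TPM in the uninduced and 10.2, 13.7 and 7.75 TPM in the induced libraries, which did not overlap. Its log2 difference was -1.53 (SE 0.52, edgeR FDR 1), and -1.46 (SE 0.13, edgeR FDR 0.00132) with the replicate number as a block. Same-numbered libraries were taken as pairs. This rests mainly on replicate 3, since replicates 1 and 2 correlated nearly as well across numbers.

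None of the 8 class I genes that passed the filter on low counts was called with doxycycline by edgeR, with or without the block. Of the 14252 genes tested 0 were called (0%), 94 had an unadjusted p under 0.05, DESeq2 called 2, and the fit with the block called 73 (0.512%). HLA-E was 19.2, 19.2 and 24.3 TPM uninduced and 29.2, 23.6 and 26.1 TPM induced. HLA-E was higher with doxycycline in all 3 pairs of the same replicate number, with ratios of 1.52, 1.23 and 1.07, although the groups overlapped. The log2 difference was 0.40 (SE 0.23, edgeR FDR 1), or 0.37 (SE 0.12, edgeR FDR 0.213) with the block. B2M was 1413, 1592 and 1743 TPM uninduced and 1861, 1584 and 2539 TPM induced, with ratios of 1.32, 0.995 and 1.46 in the pairs and a log2 difference of 0.32 (SE 0.24, edgeR FDR 1). These 2 were the members with the largest positive differences.

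NLRC5 was 0.723, 0.519 and 0.529 TPM uninduced and 0.46, 0.458 and 0.424 TPM induced. Its groups did not overlap, yet the log2 difference of -0.38 had an SE of 0.42 (edgeR FDR 1). PSMB9, the gene that did not pass the filter, was 0.264, 0.594 and 1.12 TPM uninduced and 0.208, 0.261 and 0.0777 TPM induced, from 22 and 7 estimated counts in all. Without the filter its log2 difference was -1.60 (SE 0.99, edgeR FDR 1), larger in size than that of the other 8 genes. Thus 2 of the 9 genes had TPM that did not overlap, against 3.22% of the genes with a TPM above 0, and both rest on few counts. The remaining 5 genes had log2 differences of -0.14 (HLA-B, TAPBP), -0.10 (TAP1), -0.02 (HLA-C) and 0.01 (TAP2), with SEs of 0.17 to 0.49. A p that misses the threshold does not show that these levels were equal.

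Uninduced sh908 cells were compared with parental A673 to see where the hairpin line starts. HLA-E, NLRC5 and TAP1 were called higher in the uninduced cells, 3 of the 8 genes tested, and none was called lower. Of all 15778 genes 8.71% were called higher. Without the filter on low counts these 3 calls were lost (edgeR FDR 0.0549, 0.0549 and 0.0668), and HLA-C (log2 fold change 0.91, edgeR FDR 0.0496) and PSMB9 were called higher instead, with 3.48% of all genes. PSMB9 had 1 estimated count in the parental and 22 in the uninduced libraries, and its fitted log2 fold change of 4.67 (SE 1.02, edgeR FDR 0.0234) rests on that count. On the TPM scale, with limma on log2(TPM + 1), the median of all genes moved by -0.32, and the calls split into 383 higher and 2887 lower genes, against 1375 and 1013 with edgeR. TPM values of these groups should be read against that shift.

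NLRC5 was 0.257, 0.197 and 0.265 TPM in parental A673, below all 3 uninduced libraries, with a log2 fold change of 1.75 (SE 0.40, edgeR FDR 0.0336). TAP1 was 0.485, 0.377 and 0.315 TPM in parental and 0.96, 0.75 and 1.01 TPM in uninduced cells, again without overlap (log2 fold change 1.66, SE 0.39, edgeR FDR 0.0348). The uninduced mean of TAP1, 0.906 TPM, stayed below the lowest osteosarcoma line mean of 9.64 TPM, and that of NLRC5, 0.59 TPM, was near the 0.527 TPM of KHOS. HLA-E was 18.4, 17.6 and 18 TPM in parental cells, with a log2 fold change of 0.67 (SE 0.14, edgeR FDR 0.0245) but 0.20 (FDR 0.371) by limma on the TPM scale.

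B2M was 2393, 2291 and 2109 TPM in parental cells, above all uninduced libraries, but its log2 difference was 0.00049 (SE 0.19, edgeR FDR 0.998), and -0.52 (FDR 0.0235) by limma on log2(TPM + 1), so that its direction depends on the scaling. TPM did not overlap for 6 of the 9 genes and for 33.8% of all genes with a TPM above 0. The calls changed with single libraries, and those over all genes did so too. Of the class I genes, 0 were called without A673 replicate 1, 2 or 3 or without uninduced replicate 2, 1 without uninduced replicate 1, and 5 without uninduced replicate 3, the library that stood apart. Over all genes, 2388 were called with all libraries, 4, 2 and 8 without A673 replicate 1, 2 or 3, 1377 and 266 without uninduced replicate 1 or 2, and 10202 without uninduced replicate 3. With 1 library left out the log2 fold changes were 1.48 to 1.97 for NLRC5, 1.49 to 1.88 for TAP1 and 0.63 to 0.77 for HLA-E. Whether the hairpin line or the handling of its libraries made these differences cannot be told apart.

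Of the other lists, RFXANK, a subunit of the X box binding complex, was called higher in uninduced cells (1.28, edgeR FDR 0.012) and ERAP1, a peptide trimming enzyme, lower (-0.60, edgeR FDR 0.023). None of the 4 immunoproteasome and activator genes or the 10 interferon signalling genes was called. All 4 of the former had positive log2 differences (median 0.80, against 0.01 over all genes), with PSME1 (0.70, edgeR FDR 0.051), PSMB8 (1.58, 0.053) and PSMB10 (0.89, 0.061) just above the threshold. The 3 constitutive proteasome genes were positive too, with a median of 0.83, and none was called. The Ewing sarcoma markers NKX2-2 (1.21) and PRKCB (0.90) were called higher and the endothelial genes TEK (-4.63) and PECAM1 (-1.76) lower by the same test.

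**Figure D5:**
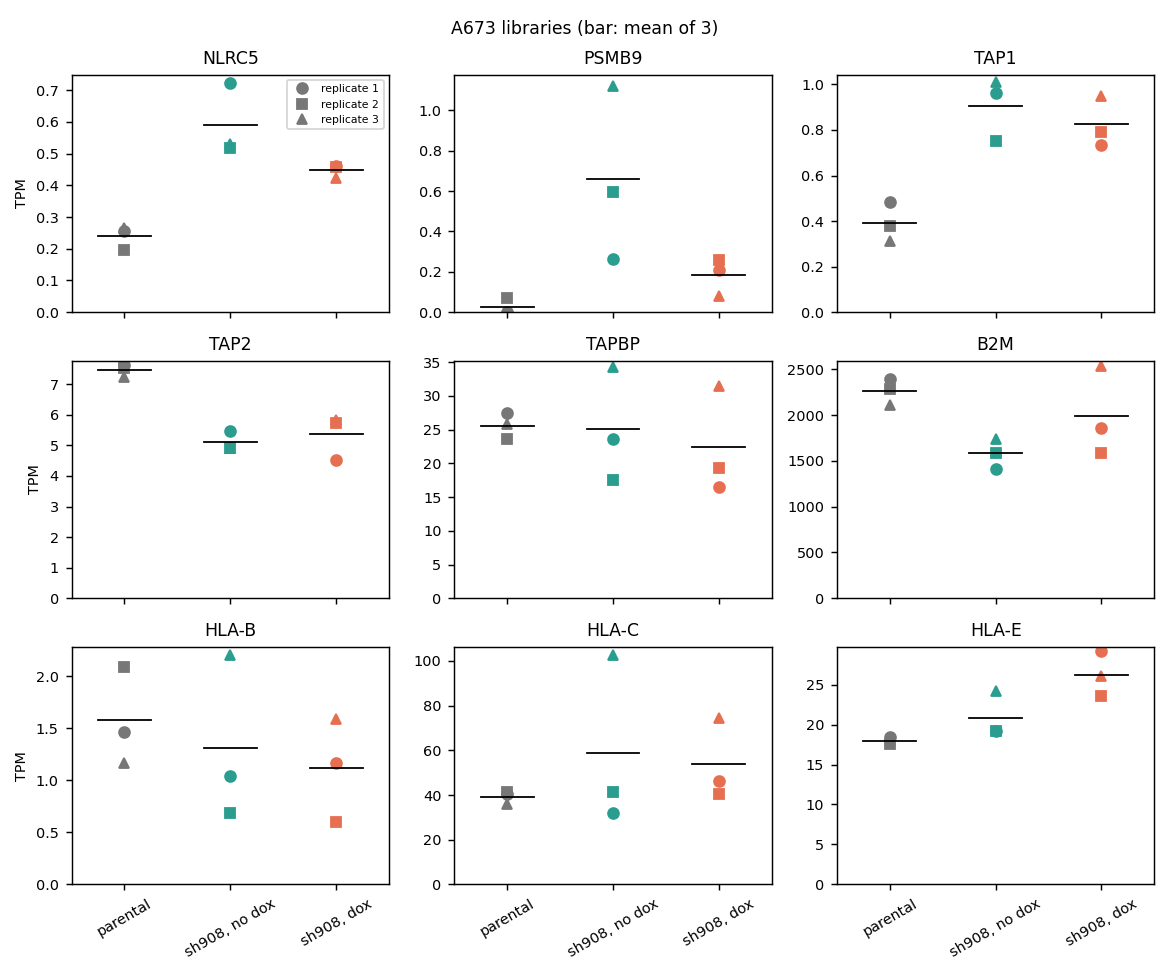
TPM of the 9 genes in the 3 libraries each of parental A673, uninduced sh908 and doxycycline-induced sh908 cells, with marker shapes for replicates 1 to 3 and a bar at the mean. TAP1 and NLRC5 of the uninduced cells lie above the parental libraries, and no gene was called with doxycycline.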

How the data were processed

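Poly(A) RNA libraries were prepared with a stranded kit per the labels' protocols. The submitters' processing notes name fastp 0.19.5, kallisto 0.46.2, hg38 and GRCh38.p14, without options. The authors deposited 1 table per library with 177816 transcripts, holding expected counts (estimated counts, not scaled for depth) and TPM, and other values per the file headers were the length and effective length.

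Transcripts were joined to genes through RefSeq GRCh38.p14 (169966, 95.6%), and 0.91% to 1.6% of counts had no gene. Sums per gene were rounded for edgeR 4.0.16 (filterByExpr, TMM, robust quasi-likelihood, Benjamini-Hochberg adjustment over all genes, FDR threshold 0.05), with DESeq2 1.42.0, limma 3.58.1 and exact 2-sided permutation tests over 1716 splits of the lines as alternatives under R 4.3.3, and the fits were tested on simulated data. Tables and figures were made with Python 3.11.15. Same-numbered sh908 libraries correlated at 0.683, 0.582 and 0.881 in their deviations from the group means, all over 0.1, and this was taken as pairing. Uninduced replicate 1 correlated at 0.608 with induced replicate 2, and uninduced replicate 2 at 0.517 with induced replicate 1. The pairing therefore rests mainly on replicate 3.

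The 9 genes and all lists were chosen with earlier results of these data known. Other genes are named by a rule: up to 5 called genes each way per comparison with the smallest FDR, and the 5 most like the members or NLRC5.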

Additional observations from a re-analysis of the deposited data

Results flagged for a closer look

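Line means that stand far from the rest of their tumour type were found in 6 of 18 groups of lines. Dixon's rule flags about 1 in 20 groups by chance when values are normally distributed, which these skewed TPM values are not, so that rate does not hold here. In each, the gap from the highest line to the next, divided by the range of the group, passed Dixon's critical value. HLA-B in RDES was 217 TPM, with the next Ewing sarcoma line at 54.1 TPM. HLA-C in SAOS2 was 676 TPM, with the next osteosarcoma line at 278 TPM. MG63 stood apart from the other osteosarcoma lines for 4 genes, TAP1 (126 TPM, next 37.6), TAP2 (119 TPM, next 50.2), TAPBP (152 TPM, next 54) and PSMB9 (116 TPM, next 25.1). On the log2(TPM + 1) scale, tried after seeing the data, 2 groups passed: TAP2 in MG63 again and HLA-E in MG63, which was the lowest at 19.1 TPM. The other 5 had a gap over range of 0.31 to 0.528 on that scale and did not pass.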

How the results depend on the processing

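Between the tumour types, each of the 9 genes kept its direction in all 234 results under other settings; 181 kept their side of the threshold, 42 lost and 11 gained a call. DESeq2 called 7 of the 9 genes (13.9% of all genes were called lower), exact permutation with a pseudocount of 1, 0.1 or 0.01 TPM called 2, and leaving out a replicate or a line gave 0 to 4 (5.97% to 8.33% of all genes were called lower). A fit of 39 libraries with the replicate number as a block called 9, but it leaves out the spread between lines and called 34.6% of all genes lower.

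With doxycycline 0 of the 8 genes tested were called under the 15 settings run, nor was PSMB9, which was tested only without a filter, and 14 of 112 results changed sign, none of them called. HLA-B became 0.17 without uninduced replicate 3, 0.12 without induced replicate 2 and 0.04 with the block and without replicate 3. HLA-C became 0.01 with limma, 0.03 with the block, 0.34 and 0.08 without the same libraries, and 0.09 and 0.26 with the block and without replicate 2 or 3. TAP1 became 0.08 without uninduced replicate 1, and 0.02 with the block and without replicate 1. TAP2 became -0.14 without uninduced replicate 3, -0.07 without induced replicate 2 and -0.12 with the block and without replicate 3. Leaving out 1 library gave -0.34 to 0.17 for HLA-B, -0.22 to 0.34 for HLA-C, -0.24 to 0.08 for TAP1 and -0.14 to 0.13 for TAP2. The block changed no call of the 8 genes.

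Between uninduced and parental cells DESeq2 called 5 genes (2289 higher and 1880 lower over all genes), leaving out 1 library gave 0 to 5 (2 to 10202 over all genes), and the replicate block, which the data did not bear out as pairs (same-number correlations 0.0455, 0.0866 and 0.25), called 0 (218 higher and 101 lower over all genes). HLA-B turned to -0.20 with limma, -0.08 without A673 replicate 3 and -0.17 without uninduced replicate 3. B2M turned to -0.01 without a filter and with the block, -0.52 with limma, -0.06 without A673 replicate 3 and -0.12 without uninduced replicate 2. Leaving out 1 library gave -0.17 to 0.41 for HLA-B and -0.12 to 0.13 for B2M. TAPBP turned to -0.07 with limma. The cause was not tested. Depth limits NLRC5 and PSMB9 in A673, EW24, SKES1 and TC71, which had 1 to 57.1 estimated counts per line, and PSMB9 in EW3 (47 counts).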

Other observations

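In MHHES1 replicate 3, where all 9 class I genes were highest, the 10 interferon receptor and signalling genes were highest too, against 35% of all genes and 6 of the 11 promoter-binding factors. So were 6 of 7 peptide loading and trimming genes, 5 of 7 other heavy chains, 3 of 4 immunoproteasome and activator genes and 7 of 10 class II genes. Of the constitutive proteasome genes 0 of 3 were, and of the chromatin silencing genes 2 of 6. The differences were of unlike size. IRF9 was 15.4, 28.7 and 78.1 TPM in replicates 1, 2 and 3. STAT2 was 25.4, 30 and 79.1 TPM, and IRF1, of the promoter-binding factors, was 3.66, 4.14 and 8.75 TPM, whereas the receptor gene IFNGR1 was 26.8, 27 and 29.7 TPM. These genes were looked at after the class I values had been seen, and with 1 such library no test was made. G292, with the highest NLRC5, had 67.7 ± 1.75 TPM of IRF9 (SD, n = 3 libraries).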
